A study of Rattus norvegicus with 24 samples.

Results

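The genes described here are 8 that make, break down or respond to dopamine and related amines, together with the receptor for prolactin: Th, Ddc, Dbh, Maoa, Maob, Drd2, Drd4 and Prlr. They were taken as every non-control probe whose gene name on the array equalled 1 of these symbols, which gave 10 probes of the 30367 on the array. Ddc and Drd2 had 2 probes each and the other genes 1 each. All 10 probes passed the detection filter, and the 8 genes were among the 20284 genes tested, each through its brighter probe. The arrays measured RNA of thyroid glands from RccHan Wistar rat pups. In the exposed litters, dams drank acrylamide in water at 3 mg/kg bw/day from gestational day 6, and the pups were exposed until postnatal day 35 ± 3. Controls drank tap water. The 24 arrays fell into 6 groups of 4. There were acrylamide and control females collected at night (10 PM), their male counterparts at the same hour, and acrylamide and control females collected in the morning (10 AM). The labels do not tie arrays to litters or single pups, so each p measures the spread between these arrays.

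Catecholamines are made from tyrosine. Tyrosine hydroxylase makes L-DOPA, aromatic amino acid decarboxylase turns it into dopamine, and dopamine beta-hydroxylase turns dopamine into noradrenaline in noradrenergic neurons and chromaffin cells. Monoamine oxidases remove the amines. Dopamine acts on D1-like receptors, which raise cyclic AMP, and on D2-like receptors such as those of Drd2 and Drd4, which lower it, and through the D2 receptor of pituitary lactotrophs it holds back the release of prolactin. Prolactin signals through its own receptor to JAK2 and STAT5. In the thyroid, sympathetic nerve fibres run along vessels and follicles, and calcitonin-producing C cells can take up and decarboxylate amine precursors.

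Levels are given as log2 of the processed signal minus the 75th percentile of the array, so that a level of 0 is as bright as the 75th percentile and 1 unit is a doubling. Levels of different probes are not comparable with each other. Between 71.5% and 82.3% of the spots of each array were well above background. No spot of the night arrays was saturated, and 188 to 469 spots of each morning array were. On morning arrays the 10 probes read at most 11.57 (Th) in log2 processed signal. The 12 thyroid follicular markers averaged 1.21 to 2.73 on 23 arrays, and -3.45 on acrylamide female morning replicate 1, where 8 of the 12 were well above background. The main Prlr differences between acrylamide and control in the morning and between night and morning in acrylamide females are given with and without this array. All other results keep it, among them the Prlr differences by slide, apart from the alternatives with an array left out. On both night slides row 1 held the controls and row 2 the exposed animals, and the sexes were on separate slides at night. Night and morning arrays lay on separate slides and carried different scan numbers, here called scan sessions. Treatment and row at night, sex and slide, and time and scan session therefore cannot be told apart. The scanner's saturation value was 778978 or 779039 on night arrays and 65496 or 65497 on morning arrays. The median of the lowest level well above background was -7.17 on night arrays and -6.27 on morning arrays.

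No member passed the test for a change with acrylamide. In the limma fit with Benjamini-Hochberg adjustment over all genes and a threshold of 0.05, 0 of 8 members passed in females at night, where 0% of all genes passed, and 0 of 8 in males at night, where again 0% passed. In females in the morning 0 of 8 passed, against 2.11% of all genes, and for the mean of the 3 pairs of groups 0 of 8 passed, against 0.00493%. At an unadjusted p under 0.05 the count was 0 of 8 members for females at night, against 1.87% of all genes, and 1 of 8 for males (Maob), against 13.6%. It was 1 of 8 for morning females (Prlr), against 23.9%, and 0 of 8 for the mean, against 6.68%, so that the members' counts were not above the background. The acrylamide effect differed by sex at night for 0 of 8 members (0% of all genes) and by time in females for 0 of 8 (0% of all genes), with 0 and 1 members (Prlr) at an unadjusted p under 0.05, against 2.20% and 16.3% of all genes. In no case did all 4 acrylamide arrays lie on one side of all 4 controls for a member's main probe. The count was 0 of 8 at night in females, against 5.46% of all genes, 0 of 8 in males, against 4.46%, and 0 of 8 in morning females, against 8.58%. The median difference of the 8 members was -0.05 for females at night, beside 0.02 over all genes. It was 0.13 for males, beside 0 over all genes, and -0.08 for morning females, beside -0.11 over all genes.

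**Figure D1:**
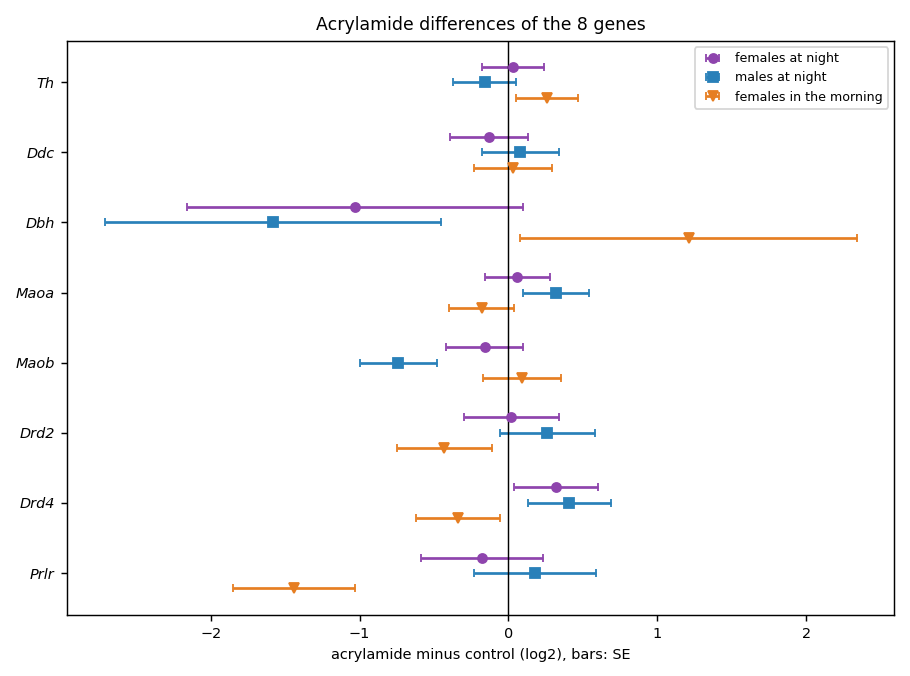
Difference between acrylamide and control (log2, x axis) for the 8 genes, by sex and hour of collection; points are limma estimates and bars their SE. The Dbh bars are the widest (SE 1.13), and Prlr in morning females lies at -1.44 (SE 0.41).

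Th encodes tyrosine hydroxylase, the rate-limiting enzyme of catecholamine synthesis. Its 60-base probe lies on rat build rn4 at chr1:203164254-203164313. All 24 arrays were well above background for it. Th stood at -0.19, -0.28, -0.71 and -0.89 in acrylamide females at night, against -0.35, -0.37, -0.71 and -0.74 in control females at night. It stood at -0.16, -0.81, -0.19 and -0.75 in acrylamide males at night, against -0.18, -0.30, -0.55 and -0.25 in control males at night. It stood at 1.94, 1.53, 2.49 and 1.87 in acrylamide females in the morning, against 1.56, 1.98, 1.67 and 1.56 in control females in the morning. The acrylamide and control arrays overlapped in each pair, with differences of 0.03 (SE 0.21), -0.16 (SE 0.21) and 0.26 (SE 0.21), adjusted p = 1, 0.731 and 0.437. All 16 night arrays lay below all 8 morning arrays.

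Th was lower at night than in the morning in both treatments. In acrylamide females the difference was -2.47 (SE 0.21, limma adjusted p = 4.12e-09), a 5.55-fold lower level at night. In control females it was -2.23 (SE 0.21, limma adjusted p = 1.69e-08), a 4.7-fold lower level. Before scaling, the log2 processed signal of Th was 9.71 to 10.32 in acrylamide females at night and 11.13 to 11.57 in acrylamide females in the morning, which do not overlap. In control females it was 9.78 to 10.36 at night and 10.15 to 11.04 in the morning, which do overlap. The 75th percentile that the levels are set against was 9.77 to 10.8 at night and 8.59 to 9.70 in the morning (log2 processed signal). The promoter of Th is shown because it holds a full cyclic AMP response element, TGACGTCA, in capitals. It is the RefSeq sequence of build GRCr8, minus strand, chr1:207508169-207508468, from 250 bases before the annotated gene start to 50 after it.
Th promoter: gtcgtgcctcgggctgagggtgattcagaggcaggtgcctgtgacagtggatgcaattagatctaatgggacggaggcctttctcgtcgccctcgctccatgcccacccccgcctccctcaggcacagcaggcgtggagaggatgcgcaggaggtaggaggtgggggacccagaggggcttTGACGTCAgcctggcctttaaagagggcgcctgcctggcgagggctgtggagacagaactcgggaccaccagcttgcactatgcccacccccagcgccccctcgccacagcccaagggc
The element begins at position -69 from the gene start. It was searched on both strands, with the E-box CACGTG, the D-box TTATGTAA and the STAT-type motif TTCNNNGAA, in 33469 RefSeq promoters of this length, of which 1.8% hold the cyclic AMP element, 6.4% the E-box, 0.89% the D-box and 8.9% the STAT-type motif. Th alone of the 8 genes held the cyclic AMP element in its window, and Ddc and Prlr each held the STAT-type motif in 1 of their windows.

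Ddc encodes the decarboxylase that makes dopamine and serotonin. Its 2 probes lie on rn4 at chr14:92698673-92698732 and chr14:92706750-92706809. The second matches coding sequence and is shown to say what was measured.
Ddc probe A_64_P029797: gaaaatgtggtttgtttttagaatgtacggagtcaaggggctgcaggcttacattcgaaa
Both probes were well above background on all 24 arrays and they moved together, with r = 0.76 over the 24 arrays and 0.81 for deviations from group means. The main probe ranged over 0.63 to 0.86 in acrylamide females at night, against 0.75 to 1.16 in control females at night. It ranged over 0.56 to 1.88 in acrylamide males at night, against 0.89 to 1.20 in control males, and over 0.23 to 0.96 in acrylamide females in the morning, against -0.12 to 1.20 in control females. Every pair of groups overlapped, and the differences were -0.13, 0.08 and 0.03 (SE 0.26 each). Night and morning differed by 0.13 (SE 0.26, adjusted p = 0.682) in acrylamide females and by 0.30 (SE 0.26, adjusted p = 0.372) in control females. Unlike Th, Ddc did not pass in either; the difference between the 2 genes was not tested.

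Dbh encodes dopamine beta-hydroxylase, the marker enzyme of noradrenergic cells. Its probe lies on rn4 at chr3:6069770-6069826. It stood at -3.08, -7.41, -5.73 and -5.74 in acrylamide females at night, against -3.29, -5.64, -3.76 and -5.14 in control females at night. It stood at -2.94, -7.89, -3.76 and -7.24 in acrylamide males at night, against -4.35, -3.33, -3.72 and -4.13 in control males at night. It stood at -1.64, -4.05, -2.03 and -5.20 in acrylamide females in the morning, against -3.63, -7.42, -3.65 and -3.06 in control females in the morning. The arrays of a group thus lay up to 4.95 apart, and 5 arrays, 4 of them acrylamide, were not well above background. The differences were -1.03, -1.58 and 1.21 (SE 1.13 each), adjusted p = 1, 0.51 and 0.521. On control female night replicate 3, at -3.76, the 2 spots of the Dbh probe lay far apart (SD 2.19). On every other array their SD was at most 0.4.

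Of all genes tested, the 3 whose deviations from group means were most like those of Dbh over the 24 arrays were Vip (r = 0.883), a neuropeptide of autonomic and sensory nerves, Tubb2b, a neuronal tubulin, and Tac1 (r = 0.822), which encodes substance P. Without the 2 arrays whose Dbh deviations from group means lay farthest from the median deviation, the r with Vip was 0.865. Vip stood at -1.76, -7.24, -7.14 and -6.30 in acrylamide females at night, against -2.51, -5.17, -6.45 and -5.56 in control females at night. In acrylamide males at night it stood at -1.72, -6.04, -2.50 and -6.13, against -4.49, -1.88, -2.99 and -3.61 in control males, so that the arrays lowest in Dbh were also low in Vip. Vip was chosen as the gene most like Dbh, so this match is a description only. The part of nerve RNA in the spread of Dbh was not tested, and in whole glands fewer nerve fibres and less RNA per fibre cannot be told apart. The wider list of 12 sympathetic and chromaffin markers tested, of 15 listed, averaged -2.47, -2.76, -2.61 and -3.77 in acrylamide males at night, against -3.12 to -2.63 in control males. In acrylamide females at night it averaged -2.72, -2.76, -3.05 and -2.88, against -2.94 to -2.52 in control females. The list was thus low on male replicate 4, but not lowest on male or female replicate 2, the arrays lowest in Dbh of these acrylamide groups.

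**Figure D2:**
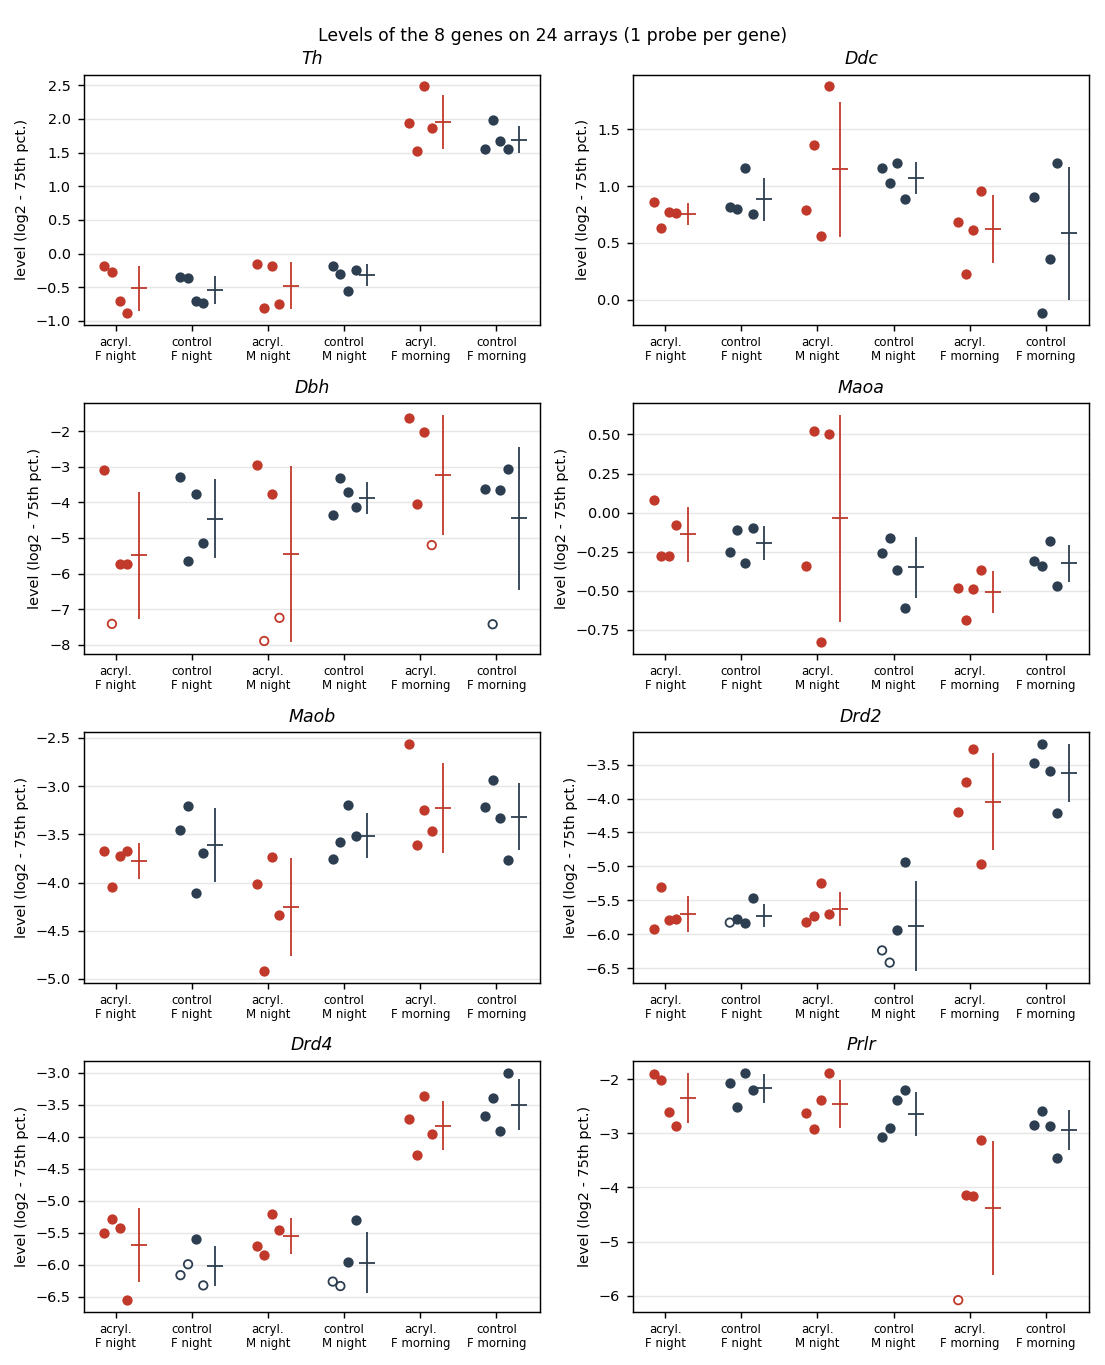
Level of each of the 8 genes (y axis, log2 minus the array's 75th percentile) on the 24 arrays by group (x axis); filled points are well above background and open points are not, and bars are the mean ± SD of 4 arrays. Th, Drd2 (coding probe) and Drd4 are higher in both morning groups, Dbh scatters in every group, and 1 acrylamide array in the morning lies low for Prlr.

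Maoa and Maob encode the monoamine oxidases of the outer mitochondrial membrane. Maoa (rn4, chrX:17679155-17679214) was well above background on 24 of 24 arrays. Its levels ran from -0.83 to 0.52 in acrylamide males at night, against -0.61 to -0.16 in control males, a difference of 0.32 (SE 0.22, adjusted p = 0.486). In acrylamide females at night it ran from -0.28 to 0.08, against -0.32 to -0.10 in control females, and in acrylamide females in the morning from -0.69 to -0.37, against -0.47 to -0.18 in control females. Each pair overlapped, and the differences in females were 0.06 and -0.18 (SE 0.22 each).

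Maob (rn4, chrX:17657030-17657089) had its probe across the end of the reading frame, and the stop codon is in capitals.
Maob probe A_64_P061797: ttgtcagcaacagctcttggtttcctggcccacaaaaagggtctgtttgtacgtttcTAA
In acrylamide males at night it stood at -4.01, -4.92, -3.74 and -4.34, against -3.76, -3.58, -3.20 and -3.52 in control males. 3 of the acrylamide arrays lay below every control, and the fourth, at -3.74, lay within the control range. The difference of -0.74 (SE 0.26) had an unadjusted p of 0.00951 and a limma adjusted p of 0.353, so it did not pass. In females the differences were -0.16 (SE 0.26) at night and 0.09 (SE 0.26) in the morning, and the difference between the sexes at night was -0.58 (SE 0.37, adjusted p = 0.996). The gene whose deviations were most like those of Maob was Bhlhe40 (r = 0.815), a transcriptional repressor linked to the clock.

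Drd2 encodes the D2 dopamine receptor. It had 2 probes on rn4 chromosome 8, each printed as 10 spots: the main one at chr8:52706533-52706592, in coding sequence, and the other at chr8:52707670-52707729, farther 3′ in the transcript. The coding probe is shown because the 2 probes gave different results.
Drd2 probe A_44_P121351: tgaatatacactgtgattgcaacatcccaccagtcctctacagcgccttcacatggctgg
The coding probe stood at -5.92, -5.31, -5.79 and -5.78 in acrylamide females at night, against -5.83, -5.77, -5.83 and -5.47 in control females at night. It stood at -5.82, -5.73, -5.25 and -5.71 in acrylamide males at night, against -6.24, -6.42, -5.94 and -4.93 in control males at night. It stood at -4.20, -3.75, -3.27 and -4.96 in acrylamide females in the morning, against -3.47, -3.20, -3.59 and -4.21 in control females in the morning. Acrylamide and control overlapped in each pair, with differences of 0.02, 0.26 and -0.43 (SE 0.32 each), and every morning array lay above every array of females at night. The median SD over the replicate spots of an array was 0.36.

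The other Drd2 probe did not follow the coding probe, with r = -0.22 over the 24 arrays and -0.17 for deviations from group means. It stood at -6.32, -3.57, -5.84 and -6.06 in acrylamide females at night, against -6.82, -6.40, -6.97 and -6.61 in control females at night. It stood at -3.84, -2.83, -6.28 and -3.80 in acrylamide males at night, against -5.90, -6.47, -6.17 and -7.23 in control males at night. The 4 highest arrays, 1 of acrylamide females and 3 of acrylamide males, stood at -3.84 or above, and every other array of the series at -5.82 or below. It was well above background on 3 of 4 arrays of acrylamide females at night, against 0 of 4 in control females at night, and on 3 of 4 in acrylamide males at night, against 1 of 4 in control males at night. In females in the morning it was well above background on no array. The probe thus passed the detection filter only through the acrylamide groups at night, where it is high, and its levels are given as a description, with no test. The group means were -5.45 ± 1.27 in acrylamide females and -6.7 ± 0.25 in control females at night, and -4.19 ± 1.47 in acrylamide males and -6.44 ± 0.58 in control males at night (SD, n = 4 each).

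The D2 receptor is a known product of pituitary lactotrophs, in the anterior lobe, and melanotrophs, in the intermediate lobe, and some pituitary transcripts were high on acrylamide arrays at night. By deviations from group means, the gene most like this probe over the 24 arrays was Pomc (r = 0.807, Spearman 0.447), the precursor of corticotropin and melanotropin. The r was 0.616 without the 2 arrays whose deviations for the probe lay farthest from the median deviation. Pomc stood at -0.68, 4.81, 2.74 and 2.13 in acrylamide females at night, against -0.23, -0.52, -0.64 and -0.18 in control females at night. It stood at 3.42, 5.75, 1.48 and 4.73 in acrylamide males at night, against -0.57, -0.39, 0.53 and -0.29 in control males at night. The 4 arrays highest in the Drd2 probe were the 4 highest in Pomc. Since Pomc was picked for its likeness to the probe, this match is no separate evidence. Prl, the prolactin gene and lactotroph marker, did not follow the probe in the same way. It stood at -8.25, -0.32, -1.32 and -1.76 in acrylamide females at night, against -7.15, -7.92, -6.79 and -4.2 in control females at night, and at 3.3, 3.9, -1.62 and -1.82 in acrylamide males at night, against -7.58, -8.23, -6.23 and -7.54 in control males at night. Prl was thus as high on 3 acrylamide arrays where the Drd2 probe was low (female replicates 3 and 4, male replicate 3) as on male replicate 4, where the probe was high. Pou1f1, a transcription factor of lactotrophs, somatotrophs and thyrotrophs, stood at -5.4 to -4.88 in acrylamide females at night, against -5.67 to -4.71 in control females, and at -5.37 to -4.42 in acrylamide males at night, against -5.39 to -4.27 in control males, so that its groups overlapped. The mean of the 7 pituitary markers tested, of 8 listed, was -5.33 to -1.67 in acrylamide females at night, against -5.44 to -4.17 in control females, and -3.23 to -0.24 in acrylamide males at night, against -5.40 to -4.27 in control males. Their part in the level of this probe was not tested.

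**Figure D3:**
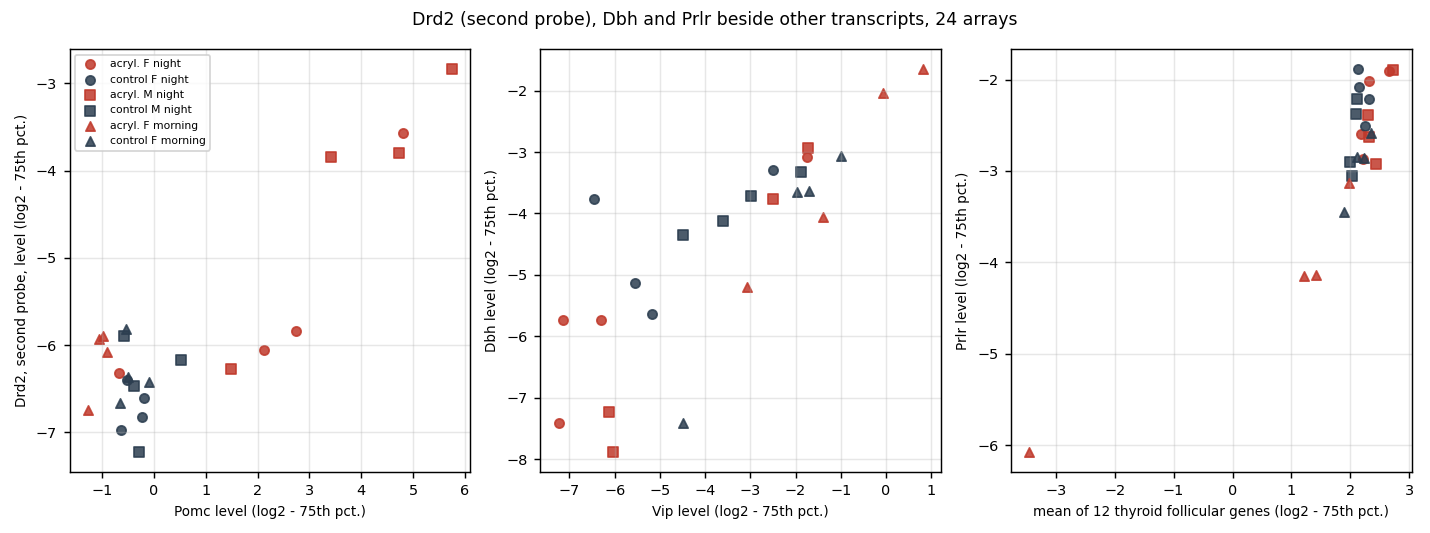
Level of the other Drd2 probe against Pomc, of Dbh against Vip, and of Prlr against the mean of 12 thyroid follicular genes (both axes log2 minus the array's 75th percentile) on 24 arrays; colour gives treatment and shape gives sex and time. The 4 arrays with a Drd2 level of -3.84 or above are the 4 highest in Pomc, and the array with the lowest thyroid mean (-3.45) has the lowest Prlr (-6.08).

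Drd4, which encodes the D4 receptor (rn4, chr1:201488725-201488784), was close to background at night. It stood at -5.50, -5.28, -5.43 and -6.55 in acrylamide females at night, against -6.16, -5.99, -5.59 and -6.32 in control females at night, and was well above background on 4 and 1 of these arrays. It stood at -5.70, -5.85, -5.21 and -5.45 in acrylamide males at night, against -6.26, -6.33, -5.96 and -5.30 in control males, well above background on 4 and 2. It stood at -3.72, -4.28, -3.37 and -3.95 in acrylamide females in the morning, against -3.68, -3.40, -3.91 and -3.0 in control females, and all 8 were well above background. The groups overlapped in each pair, with acrylamide differences of 0.32, 0.41 and -0.34 (SE 0.28 each), adjusted p = 1, 0.496 and 0.473.

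The comparison of night with morning was where members passed, and there many genes of the array passed too. In acrylamide females 3 of 8 members fell at night and 1 rose, where 28.8% of all genes fell and 27.5% rose, 56.2% in either direction. In control females 3 of 8 fell and 0 rose, where 27.8% of all genes fell and 20.8% rose, 48.6% in either direction. The control groups did not overlap for 4 of 8 members (3 lower at night, and Prlr higher), where 57.0% of all genes did not overlap, and the acrylamide groups for 6 of 8, against 45.9%. Night minus morning, Drd4 was -1.86 (SE 0.28, adjusted p = 1.66e-05) in acrylamide females and -2.52 (SE 0.28, adjusted p = 2.92e-07) in control females. The coding Drd2 probe was -1.66 (SE 0.32, adjusted p = 1.95e-04) in acrylamide females and -2.11 (SE 0.32, adjusted p = 1.32e-05) in control females. The other Drd2 probe, given as a description, averaged -5.45 at night and -6.17 in the morning in acrylamide females. In control females it averaged -6.7 and -6.32, and its night and morning arrays overlapped in both treatments. The fall of Drd2 at night thus rests on the coding probe alone.

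Dim genes as a whole were lower at night on this scale. Among the 3680 genes with a mean level between -6 and -4 over the 24 arrays, to which Drd2 (-5.10) and Drd4 (-5.09) belong, the median difference between night and morning was -0.71 in acrylamide females and -0.82 in control females, and 45.4% and 47.2% of them passed as lower. Among the 6919 genes above 0, to which Th (mean 0.30) belongs, the median was 0.23 in acrylamide females and 0.17 in control females, and 17.3% and 15.3% passed as lower. Before scaling, the coding Drd2 probe read 4.60 to 5.02 in acrylamide females at night and 4.74 to 5.86 in acrylamide females in the morning, and 4.64 to 5.26 and 4.38 to 5.86 in control females at night and in the morning, so that its night and morning arrays overlapped in both. Drd4 read 4.25 to 5.02 and 5.33 to 5.75 in acrylamide females at night and in the morning, and 4.31 to 4.90 and 5.40 to 5.66 in control females, with no overlap. The share of the scan session in these differences cannot be told apart from that of the hour.

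**Figure D4:**
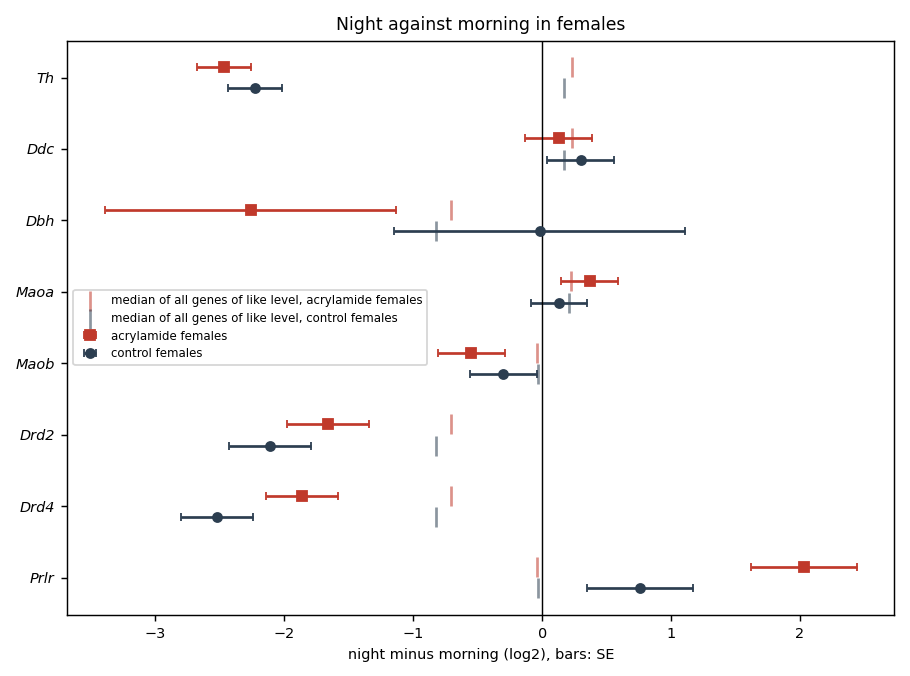
Difference between night and morning (log2, x axis) for the 8 genes in acrylamide and control females; points are limma estimates, horizontal bars their SE, and vertical ticks the median of all tested genes in the same range of mean level. Th lies at -2.47 and -2.23 while genes of like level have medians of 0.23 and 0.17. Drd2 (coding probe) and Drd4 lie at -2.52 to -1.66 with medians of -0.71 and -0.82.

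Prlr encodes the prolactin receptor, a cytokine receptor. Its 10-spot probe spans rn4 chr2:59677666-59678170, a stretch of 505 bases for a 60-base probe, so that it crosses an exon junction, and it is shown because Prlr came nearest of the members to the threshold with acrylamide.
Prlr probe A_44_P187181: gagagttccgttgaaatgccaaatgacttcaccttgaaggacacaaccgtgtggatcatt
In acrylamide females in the morning it stood at -6.08, -4.14, -4.15 and -3.13, against -2.85, -2.58, -2.86 and -3.45 in control females in the morning. 3 of the 4 acrylamide arrays lay below every control, and the fourth lay above the lowest control. The difference was -1.44 (SE 0.41, unadjusted p = 0.00227), and it did not pass, with a limma adjusted p of 0.0651. The lowest array, at -6.08, was acrylamide female morning replicate 1, where Prlr was not well above background. Without it the difference was -0.87 (SE 0.31, adjusted p = 0.242). On the slide with 2 acrylamide and 3 control arrays the difference was -1.38, and on the slide with 2 acrylamide arrays and 1 control it was -1.16. The latter slide held replicate 1, at -6.08. Its other acrylamide array, at -3.13, lay above its control, at -3.45, so the lower mean there rests on replicate 1. With slide as a block among the morning arrays, replicate 1 kept, the limma difference was -1.30 (SE 0.57, adjusted p = 0.506).

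Some marker means moved with Prlr on these arrays, and others followed it only in part. The thyroid follicular mean was -3.45, 1.41, 1.21 and 1.98 in acrylamide females in the morning, in the order of the Prlr values above, against 2.11, 2.35, 2.23 and 1.89 in control females. The mean of 5 oesophageal epithelium markers tested, of 6 listed, was 1.19, -1.67, 1.35 and -3.5 on the acrylamide arrays in the same order, against -3.61 to -2.34 in control females. The 3 acrylamide arrays low in Prlr were thus the 3 above every control in these markers. The mean of 3 parathyroid markers was -5.28, 2.16, -2.55 and 2.84, against -0.72 to 2.49 in control females, and that of 5 cartilage markers was -2.7, -1.4, -0.78 and -3.43, against -4.0 to -1.09 in control females. Cartilage on the array lowest in Prlr, and parathyroid on acrylamide replicate 2, thus lay within the control range. The mean of 14 C cell and neuroendocrine markers was -4.1, -0.35, -0.46 and -0.06, against -0.24 to 0.52. The part of tissue content in the Prlr difference was not tested. At night Prlr stood at -1.91, -2.02, -2.60 and -2.87 in acrylamide females, against -2.08, -2.51, -1.88 and -2.21 in control females. In acrylamide males at night it stood at -2.63, -2.92, -2.39 and -1.89, against -3.06, -2.90, -2.38 and -2.21 in control males. The night groups overlapped, with differences of -0.18 (SE 0.41) in females and 0.18 (SE 0.41) in males, and the acrylamide effect at night less that in the morning was 1.26 (SE 0.59, unadjusted p = 0.0429, adjusted p = 0.291), so a difference by time was not shown. The night level was higher than the morning level by 2.03 (SE 0.41, adjusted p = 3.56e-04) in acrylamide females, and by 1.46 (SE 0.31, adjusted p = 6.33e-04) without replicate 1 of the morning, and by 0.76 (SE 0.41, adjusted p = 0.137) in control females. By deviations from group means, the genes most like Prlr over the arrays were Kirrel3 and Plscr1 (r = 0.933 each) and Fmn1 (r = 0.908). Without the 2 arrays whose Prlr deviations lay farthest from the median deviation, these r values were 0.802, 0.795 and 0.722.

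No member passed between the sexes among controls at night: 0 of 8 passed, against 0.00986% of all genes, 0 had an unadjusted p under 0.05, against 1.63%, and the sexes overlapped for all 8, against 3.72% of all genes that did not overlap. The differences of males from females ran from -0.47 (Prlr, SE 0.41) to 0.57 (Dbh, SE 1.13).

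Around these genes, 7 lists of the amine and prolactin pathways held 85 genes, of which 73 were tested. None of them passed in any of the 3 acrylamide comparisons, in their mean or in either difference of effects. At an unadjusted p under 0.05 the limma fit counted 1 of the 73 in females at night, against 1.87% of all genes, 8 in males, against 13.6%, and 12 in morning females, against 23.9%, so that none of these counts was above the background. Beside 2.11% of all genes in females in the morning, the nearest to passing were Prlr, and Gch1, which makes the tetrahydrobiopterin cofactor of tyrosine hydroxylase (adjusted p = 0.0846). For the comparison of night with morning, the counts that follow stand against 27.5% of all genes higher and 28.8% lower at night in acrylamide females, and 20.8% higher and 27.8% lower in control females. With lists of 7 to 17 tested genes, nothing is read from them as particular to a list. The list of catecholamine synthesis, storage and transport had 2 genes higher and 4 lower of 10 tested in acrylamide females, and 1 higher and 4 lower in control females. Besides Th, the genes lower at night in both were Slc6a2, the noradrenaline transporter (-2.10, SE 0.23 in acrylamide females and -2.40, SE 0.23 in control females), Pnmt, which makes adrenaline (-1.41 and -1.37, SE 0.18 each), and Slc18a1, a vesicular monoamine transporter (-1.17 and -1.28, SE 0.32 each). Its relative Slc18a2 was higher at night in both (1.1 and 0.82, SE 0.23 each). The median of this list was -1.04 in acrylamide females and -0.58 in control females, beside 0.03 and 0.02 over all genes.

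Among 16 tested genes of dopamine receptors and signalling, 4 were higher and 5 lower at night in acrylamide females, and 2 higher and 7 lower in control females. The lowest was Gnal, the G protein subunit that couples D1 receptors to adenylyl cyclase in the brain (-3.94 in acrylamide females and -4.0 in control females, SE 0.34 each), and the D5 receptor gene Drd5 stood at -2.48 and -2.37 (SE 0.28 each). The amine breakdown list had 5 of 11 genes higher and 0 lower at night in each treatment, among them Aldh2, a mitochondrial aldehyde dehydrogenase (0.63 and 0.92, SE 0.16 each), and Sult1a1, a sulfotransferase (1.32 and 0.92, SE 0.29 each). Of 17 genes of prolactin receptor signalling, 6 were higher and 1 lower at night in acrylamide females and 3 higher and 2 lower in control females. Jak2, the kinase bound to the receptor, was higher in both (0.95 and 0.78, SE 0.23 each), and Socs3, an inhibitor of the pathway, was lower (-1.09 and -1.15, SE 0.16 each). The adrenergic receptor list had 0 higher and 2 lower of 9 genes in acrylamide females and 2 higher and 3 lower in control females, and the serotonin list 2 higher and 2 lower of 7 in acrylamide females and 1 higher and 1 lower in control females. The tetrahydrobiopterin list had 3 of 7 genes higher in acrylamide females and 0 of 7 past the threshold in control females; the difference was not tested. These comparisons of night with morning carry the same scan session split as those of the members.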

How the data were processed

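The files were single-colour Agilent scanner files, 1 for each array, made with Agilent Feature Extraction 10.1.1.1 per the file headers. The deposited processed signal is an intensity after background subtraction and detrending, and the deposited flags, each 0 or 1, mark outlier, saturated and well-above-background spots, per the file headers. The deposited series values are log2 values with a median of 0 on every array, and were used only as an alternative.

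Spots with outlier flags were left out, spots of a probe averaged, and each array's 75th percentile subtracted. A probe was kept when well above background on at least 3 of 4 arrays of at least 1 group, and each gene was tested through the probe with the highest mean. limma 3.58.1 (R 4.3.3) fitted the 6 group means over 24 arrays (18 residual degrees of freedom). Benjamini-Hochberg adjustment ran over all 20284 genes at a threshold of 0.05, 2-sided. The number of arrays limits the precision. The fit was tested on simulated data.

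Members, lists and comparisons were chosen with earlier results of these data known. Other genes named are those of the lists past the threshold, at most 5 by list, direction and comparison, and the 3 genes most like each member; Gch1, Vip, Pomc, Prl and Pou1f1 values and the ranges by level were added after values were seen. Night against morning in acrylamide females was added too. Probe names agreed between both array annotations, probe positions are rn4 per the file headers, and promoters are RefSeq, GRCr8. Alternatives covered background, scaling, filter, probe choice, weights, the variance prior, the replicate block, slide and row, and each array left out.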

Additional observations from a re-analysis of the deposited data

Results flagged for a closer look

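Dixon's test over 60 groups of 4 arrays (10 probes in 6 groups) marked 4 single arrays that lie far from the other 3 of their group; chance marks about 1 in 20 groups. Ddc (main probe) was 1.16 in control female night replicate 3, above the other 3 at 0.75 to 0.82. Dbh was -7.42 in control female morning replicate 2, where it was not well above background, below the others at -3.65 to -3.06. Maob was -4.05 in acrylamide female night replicate 2, the array that also had the highest Pomc of its group, below the others at -3.72 to -3.67. The coding Drd2 probe was -5.47 in control female night replicate 4, above the others at -5.83 to -5.77. None of the 4 genes passed in a comparison of acrylamide with control.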

How the results depend on the processing

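Counts of members past the threshold were recomputed under 211 combinations of 8 comparisons with the alternatives, and 208 stayed within 1.5 times the main count. Among the 208, 1 was no processing alternative: it put acrylamide females in place of control females for night against morning. The 3 that moved were all in acrylamide against control in females in the morning, where the count of 0 became 1 (Prlr) with quantile normalization, and ranged from 0 to 1 with an array left out (1 without acrylamide female morning replicate 3 or 4). With the replicate block the counts were 0 in every acrylamide comparison and 3 for night against morning in control females, as without it. Acrylamide and control arrays with the same replicate number correlated between -0.23 and 0.35 in their deviations from group means, not every array correlated best with its own number, and the numbers were not taken as pairs. In control females at night against the morning, 3 or 4 members passed under every alternative, with Th between -2.30 and -1.97, Drd4 between -2.66 and -1.64 and Drd2 between -2.31 and -1.25. The fourth was Prlr with quantile, median or deposited scaling (1.01 to 1.03), array weights, only those arrays, or 2 doubted arrays left out, and Maob with normexp (-0.69). The doubted arrays were acrylamide female morning replicate 1 and acrylamide male night replicate 4. On the latter the parathyroid mean was -1.74, against 3.46 to 4.22 in control males at night. Over all members and alternatives, 81 of 1742 differences changed sign, none of them with an unadjusted p under 0.05. The normexp background shrank the Prlr difference in the morning to -0.71, not past the threshold. Signal over background limits Drd2, Drd4 and Dbh, which were not well above background on several arrays.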
